A study of Mus musculus with 6 samples.

Results

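Munc13 proteins and the proteins they work with were followed in retinae of newborn mice: the 4 Munc13 genes Unc13a, Unc13b, Unc13c and Unc13d, the 2 CAPS genes Cadps and Cadps2, and the 2 RIM genes Rims1 and Rims2. The genes were taken by symbol from a platform annotation, and every probe group (transcript cluster) annotated to exactly 1 of them was kept. All 8 genes were found, in 16 clusters, out of 19938 genes with such a cluster in 21789 clusters. Unc13c had 7 clusters, Unc13a 3 and each of the other genes 1. The family was selected on the knockout minus wild-type signal of Unc13c in these same arrays, where that gene stood out, so its differences between genotypes are given as a description.

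The groups were 3 Meg2 knockout retina samples and 3 Meg2 wild-type samples, all from mice of the strain background C57BL/6NTac at postnatal day 0 (P0). Meg2, a protein tyrosine phosphatase whose gene is Ptpn9, is known to act on the fusion of secretory vesicles. Each array carried RNA from both retinae of 1 animal, per the labels. The sources used here do not give the kind of knockout allele.

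A secretory vesicle that has docked at the plasma membrane must be primed before calcium can make it fuse. Munc13 proteins open the SNARE protein syntaxin and help it assemble with its partners, RIM proteins bring Munc13 and the vesicle GTPase Rab3 to the release site, and CAPS proteins prime dense-core vesicles that carry peptides. Munc13-1, Munc13-2 and Munc13-3 carry a C1 domain that binds diacylglycerol, whereas Munc13-4 lacks it and is known from granule release in blood cells. In the brain Munc13-3 is best known from the cerebellum, and in the retina Munc13-2 has been found at the ribbon synapses of photoreceptors, which form after birth.

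The sequences just before the transcription start show 1 feature in which Unc13c stands apart from the other members matched. RefSeq's promoter table (GRCm38.p6) held 6 of the 8 genes. In the 250 bases before the start, Unc13c had 6 CG dinucleotides, against 14 in Cadps, 16 in Unc13b, 18 in Unc13a, 19 in Rims1 and 44 in Cadps2. The median over 32851 windows of that length was 6, and 92.13% held at least 1. The windows of Unc13c (chr9:73969038-73969287, minus strand) and, for comparison, of Unc13a (chr8:71671758-71672007, minus strand) are shown because these genes, which encode related priming proteins, differ in this count, with each CG in capitals. CG reads the same on both strands, the motif searched was CG alone, and its number is a description of the windows.
Unc13c: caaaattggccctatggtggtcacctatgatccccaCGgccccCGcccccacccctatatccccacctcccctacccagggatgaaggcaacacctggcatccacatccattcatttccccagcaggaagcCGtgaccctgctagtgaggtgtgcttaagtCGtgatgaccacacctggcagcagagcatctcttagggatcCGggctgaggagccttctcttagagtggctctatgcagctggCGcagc
Unc13a: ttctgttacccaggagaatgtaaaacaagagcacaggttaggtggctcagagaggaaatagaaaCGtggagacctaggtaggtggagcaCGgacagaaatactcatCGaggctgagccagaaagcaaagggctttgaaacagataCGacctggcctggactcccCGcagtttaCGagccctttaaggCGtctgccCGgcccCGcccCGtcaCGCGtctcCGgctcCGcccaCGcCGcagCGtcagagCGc

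Signals were normalised log2 values, with array medians between 7.84 and 7.91. Different clusters carry different probes, so a signal that is brighter in 1 cluster than in another is not read as more transcript, and mean signal over the 6 arrays served only to order clusters and to pick 1 cluster per gene. Ptpn9 itself read 9.31, 9.58 and 9.28 on the knockout arrays, against 10.05, 9.93 and 9.94 on the wild-type arrays. Its log2 difference was -0.58 (SE 0.087) and the arrays did not overlap. The sources used here do not say which part of the gene is deleted, so the signal left in the knockout may include probes outside it. The replicate 2 arrays of both genotypes carried the female transcript Xist together with Y-linked signal: Xist was at 12.54 (knockout) and 12.54 (wild type), and the Y-linked gene Eif2s3y at 7.66 (knockout) and 7.76 (wild type). On the other arrays Eif2s3y was at 10.03 (knockout) and 9.39 (wild type) in replicate 3, and at 5.08 (knockout) and 5.49 (wild type) in replicate 1. Xist was at 6.26 (knockout) and 6.52 (wild type) in replicate 3, and at 12.58 (knockout) and 12.73 (wild type) in replicate 1. Sex-linked signal thus followed the replicate number in both genotypes. The labels give 1 animal per array, and why replicate 2 carried both signals was not tested. Results are therefore also given without replicate 2. Retinal identity was checked on 8 measured genes of retinal neurons and progenitors. Their mean signal lay between 11.36 and 11.51 on the knockout arrays and between 11.34 and 11.42 on the wild-type arrays, with the eye transcription factor Pax6 at a mean of 12.60 (knockout) and 12.55 (wild type) and the photoreceptor and bipolar factor Otx2 at 13.14 (knockout) and 13.15 (wild type).

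Unc13c, the gene of Munc13-3, had higher signal in knockout retina in 7 of 7 clusters. The differences ran from 0.30 to 0.83 on the log2 scale, which is 1.23-fold to 1.77-fold, with a median of 0.62. The upper end belongs to a dim cluster, 10594971, whose wild-type mean of 5.91 lay below the 25th percentile of signal (6.85), and the files hold no detection call for it. Signals of the genotypes did not overlap in any of the 7, with the knockout arrays on top. Over all 23410 named clusters arrays did not overlap in that direction in 4.08%, and the median difference was 0.0012. Since Unc13c was picked for this contrast, nothing is read from that comparison.

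Cluster 10594973, with the highest mean over the 6 arrays (9.20, next to 9.19 in cluster 10594969, which was the brighter of them on wild-type arrays), read 9.56, 9.56 and 9.51 on the knockout arrays, against 8.74, 9.03 and 8.78 on the wild-type arrays. Knockout arrays thus lay within a narrow band and the wild-type spread was wider, with an SD of 0.029 among knockout arrays and of 0.16 among wild-type arrays (n = 3 each). The log2 difference was 0.69 (SE 0.081, 95% interval 0.51 to 0.88). Cluster 10594948 read 8.61, 8.55 and 8.65 on the knockout arrays, against 7.95, 8.04 and 7.94 on the wild-type arrays, and both groups were tight. Its difference was 0.62 (SE 0.060, 95% interval 0.49 to 0.76), the smallest standard error among the 7.

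The cluster with the lowest mean signal, 10594971, read 6.50, 6.90 and 6.80 on the knockout arrays, against 5.68, 6.08 and 5.96 on the wild-type arrays. Replicate 1 was the lowest array of each genotype here and replicate 2 the highest. The difference was 0.83 (SE 0.13). Within the replicate numbers 1, 2 and 3 it was 0.823, 0.820 and 0.834, so the spread of the levels was almost wholly shared by the arrays of 1 number. With the replicate number as a block its standard error was 0.045, and limma with Benjamini-Hochberg adjustment gave an adjusted p of 0.0138, against 0.437 without the block. It was the 1 cluster of 23410 (0.00427%) past 0.05 with the block, and 0 clusters (0%) passed without it. Unc13c was picked for this contrast, so that call is a description. A filter at the 25th percentile of signal leaves this cluster out. At an unadjusted p under 0.05, limma gave 803 of 23410 clusters (3.43%) without the block and more, 2063 of 23410, with it.

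Cluster 10594963 read 8.48, 8.54 and 8.85 on the knockout arrays, against 7.63, 8.07 and 7.81 on the wild-type arrays. These were the widest wild-type arrays of the 7 clusters, at an SD of 0.20 among knockout arrays and 0.22 among wild-type arrays. The difference was 0.78 (SE 0.13). Cluster 10594967 read 9.14, 9.18 and 9.52 on the knockout arrays, against 8.59, 8.73 and 8.65 on the wild-type arrays, with knockout replicate 3 apart from the other knockout arrays. Its difference was 0.62 (SE 0.10).

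Cluster 10594965 read 8.45, 8.45 and 8.69 on the knockout arrays, against 7.96, 8.03 and 7.98 on the wild-type arrays, and again knockout replicate 3 was the highest. The difference was 0.54 (SE 0.077). Cluster 10594969 showed the smallest difference of the 7, 0.30 (SE 0.072, 95% interval 0.14 to 0.46). It read 9.23, 9.46 and 9.31 on the knockout arrays, against 9.07, 9.06 and 8.98 on the wild-type arrays. The groups were apart there by less than in any other Unc13c cluster. Its interval ended below the intervals of clusters 10594973, 10594948, 10594963 and 10594971. All clusters were read on the same arrays, and whether their differences are unequal was not tested. The sources used here do not give the exons that each cluster reads.

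**Figure D1:**
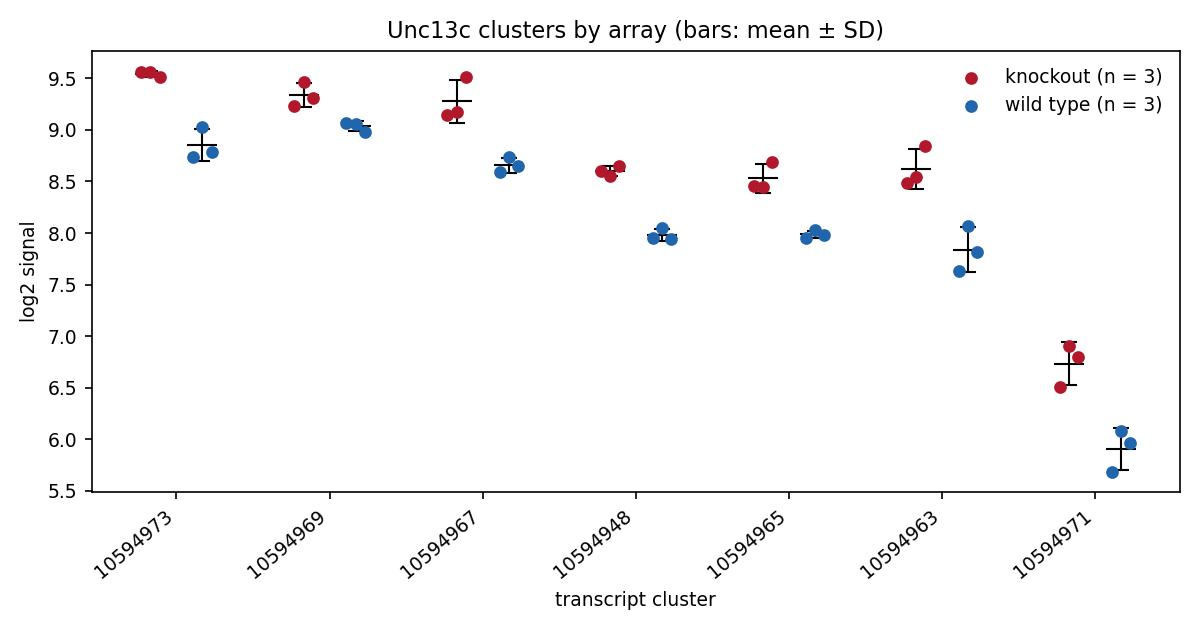
Log2 signal (vertical axis) of the 7 Unc13c transcript clusters (horizontal axis, by falling mean signal), with knockout arrays in red on the left and wild-type arrays in blue on the right of each pair. Points are arrays, with replicates 1 to 3 from left to right, and black bars give mean ± SD (n = 3). In each cluster the 3 knockout arrays lie above the 3 wild-type arrays, with the closest groups in cluster 10594969.

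Over all 23410 clusters, 16.5% were higher in the knockout within each of the 3 replicate numbers. In Unc13c the knockout array exceeded the wild-type array in 7 of 7 clusters within each number, which follows from arrays that do not overlap. The difference ran from 0.17 to 0.85 in replicate 1, from 0.40 to 0.82 in replicate 2 and from 0.33 to 1.03 in replicate 3. Replicate 3 held the largest difference in 5 of the 7 clusters. Averaged over the 7 clusters, signal was 8.57, 8.66 and 8.76 on the knockout arrays and 7.95, 8.15 and 8.02 on the wild-type arrays. Among wild-type arrays replicate 2 was the highest in 6 clusters and replicate 1 the lowest in 5. Without replicate 2 of both genotypes the differences ran from 0.25 in cluster 10594969 to 0.94 in cluster 10594963, and cluster 10594973 differed by 0.77. Without replicate 2, limma called 0 clusters without the block. With the block it called 20 of 23410 (0.0854%), of which 6 were Unc13c clusters, at adjusted p from 0.00648 to 0.0392, and the exception was cluster 10594969 (adjusted p = 0.472). None of the 9 clusters of the other members passed there. That fit has 4 arrays and 1 residual degree of freedom per cluster before limma's moderation, and it was added after the values were seen. The 6 clusters read 1 gene, which was picked for its difference in these arrays, so their calls are a description.

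**Figure D2:**
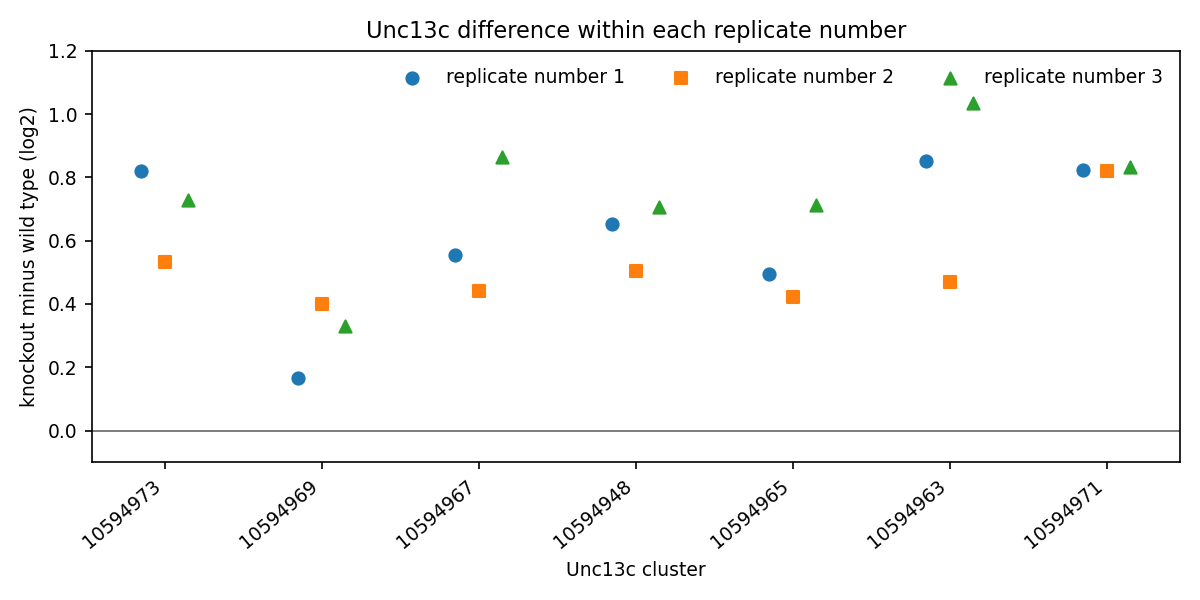
Knockout minus wild-type log2 signal (vertical axis) within each replicate number for the 7 Unc13c clusters (horizontal axis). Circles, squares and triangles are replicate numbers 1, 2 and 3. All 21 differences lie above 0, as they must where arrays do not overlap. Those of cluster 10594971 nearly coincide at 0.82 to 0.83.

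Markers of other cell types were read beside these differences. Of 9 endothelial and pericyte genes, 7 lay higher in the knockout, with a median difference of 0.14, 3 at an unadjusted limma p under 0.05 and 0 past correction, where 1.69% of all clusters were higher at that level. Those 3 were also the ones whose arrays did not overlap: Cdh5 (VE-cadherin) at 0.54 (SE 0.14), the pericyte gene Rgs5 at 0.50 (SE 0.11) and the endothelial surface gene Emcn at 0.50 (SE 0.14). These 3 differences, named after their values were seen, lie within the range of the Unc13c clusters. The mean of Emcn, 6.32, lay below the 25th percentile of signal (6.85). The rest of the 9 genes ran from -0.070 to 0.16. The mean signal of the 9 genes ran from 8.16 to 8.50 on the knockout arrays and from 8.10 to 8.18 on the wild-type arrays. Of 10 lens genes 8 lay higher (median 0.075, 1 at that level). Their array means were 7.50 to 7.74 in the knockout and 7.43 to 7.54 in the wild type. The crystallin genes Cryaa at 0.53 (SE 0.22) and Cryba1 at 0.54 (SE 0.27) were apart between genotypes, mostly through knockout replicate 3. Cryaa read 7.70, 7.78 and 8.70 on the knockout arrays, against 7.60, 7.58 and 7.42 on the wild-type arrays. Cryba1 read 6.16, 6.20 and 7.32, against 5.87, 6.05 and 6.12, and its mean of 6.29 lay below the 25th percentile of signal (6.85). Of 9 microglia and leukocyte genes 8 lay higher (median 0.12, 3 at that level), with array means of 7.86 to 8.14 in the knockout and 7.80 to 7.92 in the wild type. The 3 were complement genes, named after their values were seen. C1qb at 0.47 (SE 0.13) and C1qa at 0.21 (SE 0.079) were apart, and C1qc at 0.21 (SE 0.089) overlapped. The rest of this list ran from -0.0021 to 0.15. Of 8 pigment epithelium genes 6 lay higher (median 0.053, 1 at that level), with array means of 7.13 to 7.45 in the knockout and 7.11 to 7.26 in the wild type. The array means of these lists overlapped between genotypes. That sets all arrays side by side without regard to replicate number, so the overlap does not show that a shift is absent. The part of these cell types in the Unc13c difference was not tested. Of 5 genes listed for brain tissue outside the retina, among them the cerebellar granule cell gene Gabra6, 3 lay higher. In this list 3 genes had a mean below the 25th percentile of signal, Gabra6 (5.76) among them. Zic1 was bright in both groups, at a mean of 10.41 (knockout) and 10.33 (wild type), so bright signal of a listed gene did not set samples apart. The array means of the 5 were 7.33 to 7.40 in the knockout and 7.30 to 7.43 in the wild type. Whether this list would show such tissue at P0 was not tested. In bulk retina, more cells that carry a transcript and more transcript per cell cannot be told apart.

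Unc13a, the gene of Munc13-1, which is the main priming protein of most brain synapses, had 1 cluster in which the genotypes were apart and 2 in which they overlapped. Whether the 3 clusters differ from each other was not tested, and their intervals overlap. The cluster with the highest mean signal, 10579554, read 9.84, 9.93 and 9.90 on the knockout arrays, against 10.04, 10.04 and 10.03 on the wild-type arrays. The arrays did not overlap, with the knockout lower, as in 4.35% of all clusters. The difference of -0.15 (SE 0.056, 95% interval -0.28 to -0.021) had an unadjusted p of 0.0274 in limma and did not pass correction (adjusted p = 1.00). Cluster 10579550 read 8.36, 8.46 and 8.54 on the knockout arrays, against 8.38, 8.58 and 8.46 on the wild-type arrays, which overlapped. Its difference was -0.018 (95% interval -0.19 to 0.15). Cluster 10579548 read 8.18, 7.98 and 7.90 on the knockout arrays, against 8.08, 7.95 and 7.86 on the wild-type arrays. Its difference was 0.055 (95% interval -0.15 to 0.26), with replicate 1 the highest array of each genotype.

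Unc13b, the gene of Munc13-2, read 9.78, 9.73 and 9.73 on the knockout arrays, against 9.74, 9.84 and 9.86 on the wild-type arrays. The groups overlapped, and only in replicate 1 was the knockout array the higher one. The difference was -0.071 (SE 0.060, 95% interval -0.21 to 0.065). Unc13d, the gene of Munc13-4, read 7.48, 7.32 and 7.30 on the knockout arrays, against 7.28, 7.19 and 7.27 on the wild-type arrays. Its groups lay just apart, and the difference was 0.12 (SE 0.068, 95% interval -0.033 to 0.27), with the 9 microglia and leukocyte genes at a median of 0.12 as well. The part of those cells in the Unc13d value was not tested. Rab27a, the GTPase that Munc13-4 binds on granules, averaged 7.40 ± 0.070 on knockout arrays and 7.47 ± 0.15 on wild-type arrays (SD, n = 3 each), and the syntaxin binding gene Stxbp2 averaged 10.15 ± 0.11 on knockout arrays and 10.22 ± 0.10 on wild-type arrays.

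Of the CAPS genes, Cadps (CAPS1) read 10.62, 10.77 and 10.81 on the knockout arrays, against 10.62, 10.83 and 10.78 on the wild-type arrays. Arrays of the same replicate number lay close, at differences of -0.059 to 0.032. The mean difference was -0.0077 (SE 0.077, 95% interval -0.18 to 0.17). Cadps2 (CAPS2) read 7.57, 7.68 and 7.62 on the knockout arrays, against 7.51, 7.48 and 7.54 on the wild-type arrays. The knockout arrays lay above the wild-type arrays by a narrow margin, and the difference was 0.11 (SE 0.059, 95% interval -0.019 to 0.25).

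Of the RIM genes, which encode active zone scaffold proteins, Rims1 read 9.34, 9.21 and 9.50 on the knockout arrays, against 9.30, 9.42 and 9.48 on the wild-type arrays. Its groups overlapped, with a difference of -0.050 (SE 0.086, 95% interval -0.25 to 0.15). Rims2 read 9.41, 9.65 and 9.53 on the knockout arrays, against 9.63, 9.63 and 9.52 on the wild-type arrays. Its groups overlapped too, with a difference of -0.065 (SE 0.074, 95% interval -0.23 to 0.10).

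**Figure D3:**
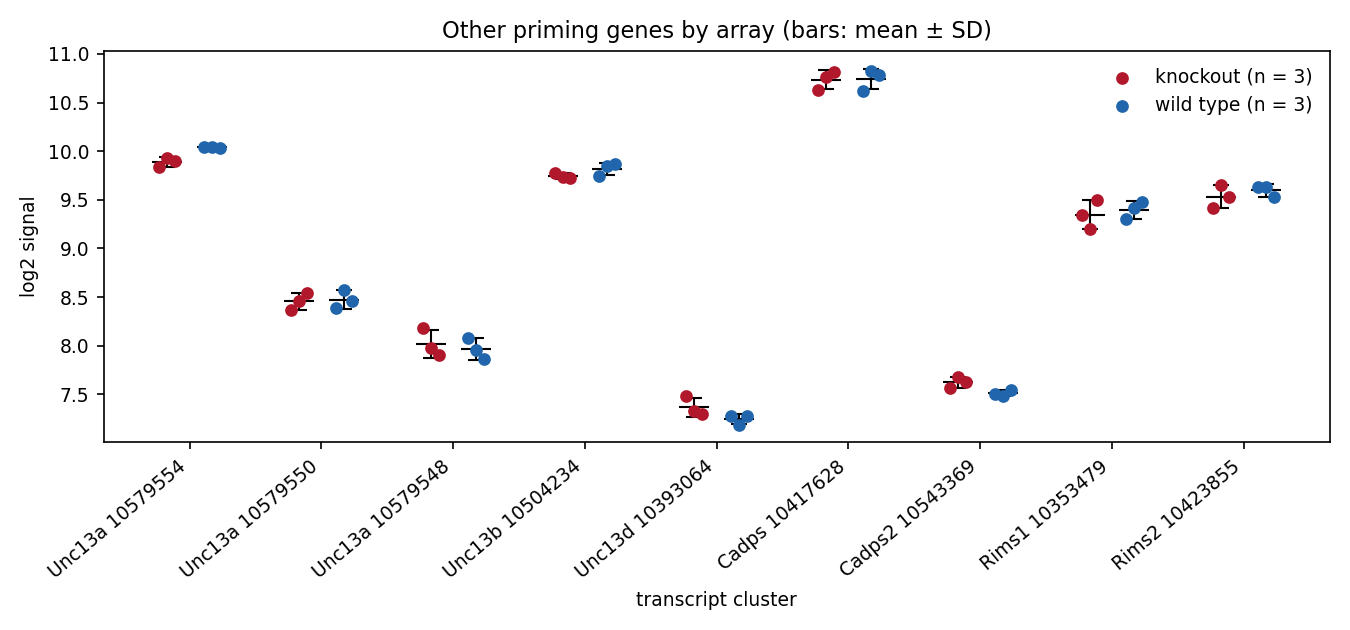
Log2 signal (vertical axis) of the 9 clusters of the other 7 genes (horizontal axis), with knockout arrays in red on the left and wild-type arrays in blue on the right of each pair. Points are arrays and black bars give mean ± SD (n = 3). Arrays overlap in 6 of the 9 clusters and are apart in Unc13a cluster 10579554 (knockout lower), Unc13d and Cadps2 (knockout higher).

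Among the 9 clusters of the 7 genes other than Unc13c, differences ran from -0.15 to 0.12 with a median of -0.018, and 3 were above 0. Arrays did not overlap in 2 with the knockout higher and in 1 with it lower, where 8.43% of all clusters did so in either direction. None of the 9 passed correction in limma, with or without the replicate block, where their lowest adjusted p was 0.520. Each of their intervals, from the fit without the block, lay between -0.28 and 0.27. Unc13c was picked for this contrast, so nothing is read from setting its clusters beside these intervals.

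**Figure D4:**
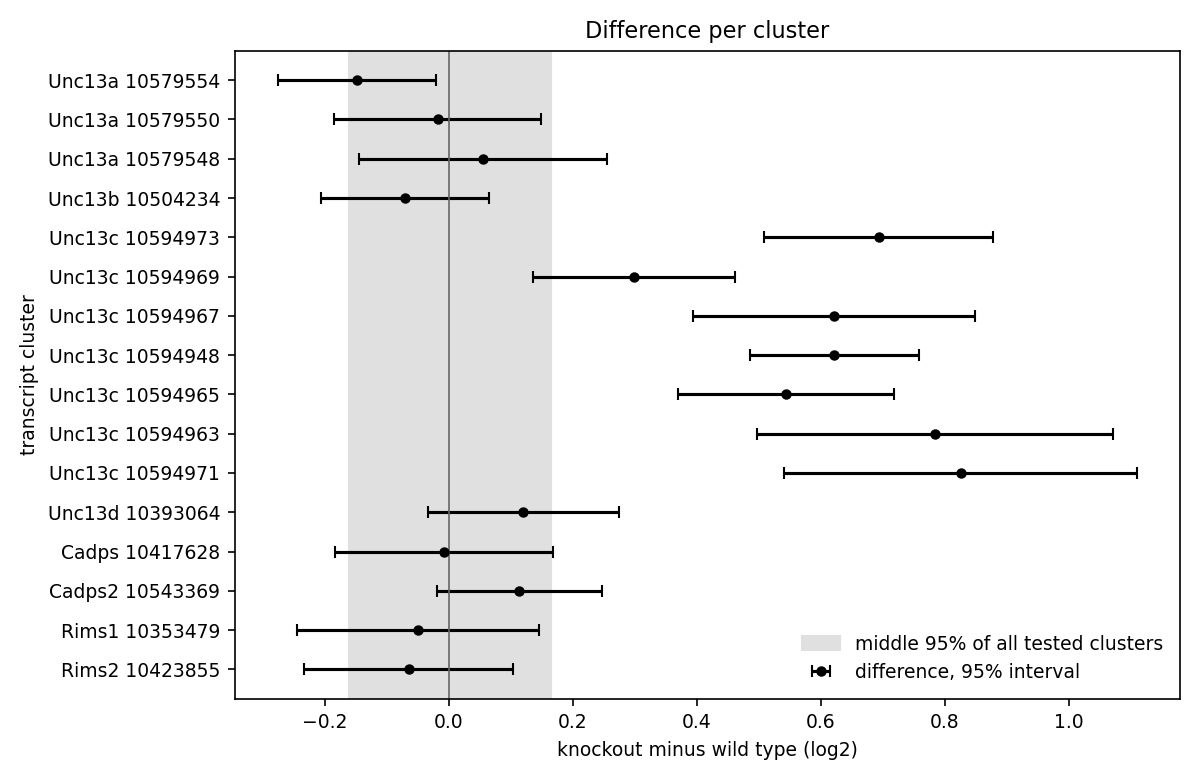
Knockout minus wild-type log2 difference with its 95% limma interval (horizontal axis) for the 16 clusters (vertical axis). The grey band holds the middle 95% of the differences of all 23410 tested clusters, from -0.16 to 0.17. The 7 Unc13c clusters lie to the right of the band, from 0.30 to 0.83, and the 9 others lie within it.

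Genes that work with these proteins were read in 4 lists, each gene by the cluster of highest mean signal that names it alone. Of 26 genes for Rab3 and Rab27 GTPases, their effectors and active zone proteins, 0 passed correction in limma, 0 were higher and 1 was lower at an unadjusted p under 0.05, and the median difference was -0.015. Over all clusters 1.69% were higher and 1.74% lower at that level. The 1 gene was Rab3d, a GTPase of secretory granules, at 8.85, 8.81 and 8.85 on the knockout arrays, against 8.99, 8.94 and 9.13 on the wild-type arrays (difference -0.19, SE 0.066). Sytl4, a Rab27 effector of secretory granules, differed by 0.10 (SE 0.076).

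Of 28 measured SNARE genes and their regulators (31 listed), 0 were past an unadjusted p of 0.05 in either direction and the median difference was -0.014. Stxbp5l, a tomosyn that binds syntaxin, differed by -0.13 (SE 0.070), and the syntaxin gene Stx2 by -0.14 (SE 0.087). Of 16 measured dense-core vesicle genes (17 listed), 1 was higher at that level and 0 lower, with a median of 0.013. It was Pam, the enzyme that amidates peptide hormones, at 10.11, 10.12 and 10.12 on the knockout arrays, against 9.93, 9.96 and 9.89 on the wild-type arrays (difference 0.19, SE 0.054). The secretogranin gene Scg2 differed by 0.054 (SE 0.060).

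Of 20 measured genes of calmodulin, phospholipase C, protein kinase C and diacylglycerol kinase (24 listed), which set or read the signals that act on Munc13, 0 were past an unadjusted p of 0.05 and the median was -0.023. The phospholipase gene Plcg2 differed by 0.18 (SE 0.090) and the diacylglycerol kinase gene Dgka by -0.096 (SE 0.059). In these 3 lists too, 0 genes passed correction in limma, and none did with the replicate block in any of the 4.

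Unc13c lies on the same chromosome as Ptpn9, chromosome 9, with 168 measured genes between them in the gene order of GRCm38.p6, and the other 7 genes lie on other chromosomes. The nearest measured genes on either side, Rsl24d1 (a ribosome assembly factor) and Wdr72 (known from tooth enamel), differed by 0.038 (SE 0.078) and 0.025 (SE 0.061). The 5 measured genes on each side, Rab27a among them, differed by -0.14 to 0.18, and in 0 of these 10 were arrays of the genotypes apart or an unadjusted limma p under 0.05. Of the 168 genes between Ptpn9 and Unc13c, arrays were apart in 13 with the knockout higher and in 13 with it lower, which is 15.5%, against 8.43% of all clusters. At an unadjusted limma p under 0.05, 9 were higher and 8 lower (10.1%, against 3.43% of all clusters), and the median difference was 0.0035. Each of the 168 genes was read by its single-gene cluster of highest mean signal. All clusters also include dimmer clusters of the same genes and clusters of several genes, so the sets are unlike. The cause of the higher shares was not tested.

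**Figure D5:**
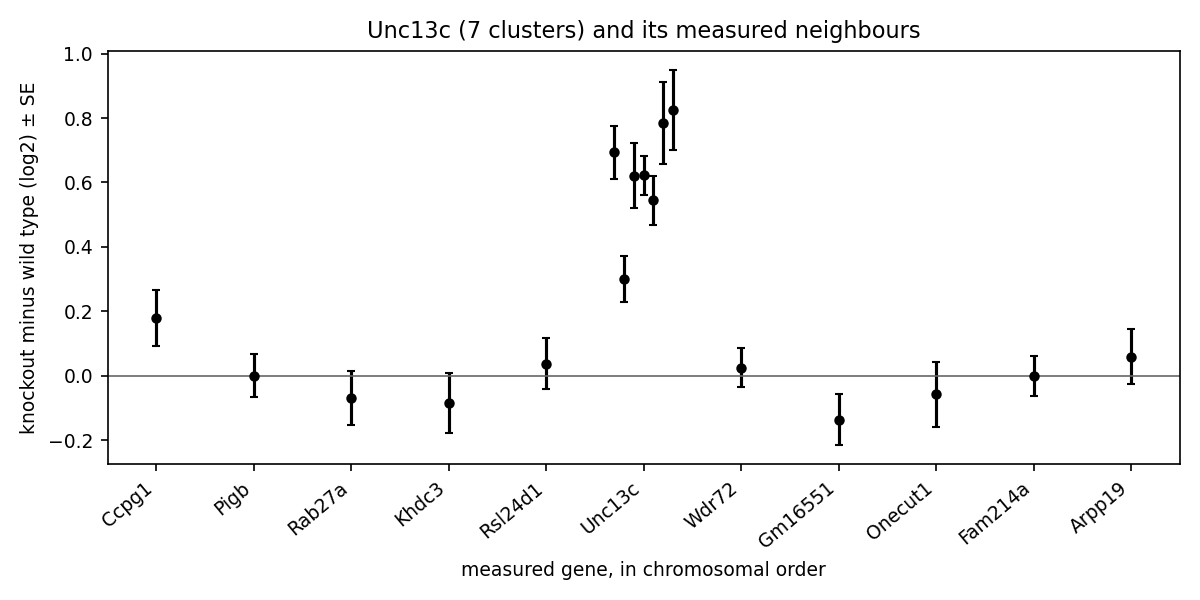
Knockout minus wild-type log2 difference ± SE (vertical axis) of the 7 clusters of Unc13c and of the 5 measured genes on each side in chromosomal order (horizontal axis, not to distance). The Unc13c clusters stand between 0.30 and 0.83 and the neighbours between -0.14 and 0.18.

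The 5 genes whose levels over the 6 arrays were most like those of Unc13c cluster 10594973 were sought among 10970 single-gene clusters of other genes above the median signal. They were Trim33, a nuclear ubiquitin ligase (Pearson's r = 0.994), Rhoj, a small GTPase known from endothelium (0.988), Pam (0.981), A930011G23Rik (0.980) and Srgap3, a GTPase activating protein (0.977). Among so many candidates and over 6 arrays that fall into 2 groups, high values are a description only. Their differences were 0.10, 0.42, 0.19, 0.12 and 0.13 in that order, each smaller than the 0.69 of that Unc13c cluster. The other 6 Unc13c clusters had r of 0.888 to 0.979 with it.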

How the data were processed

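RNA of 6 retina samples was hybridised to Affymetrix Mouse Gene 1.0 ST arrays, 1 array per sample. Each transcript cluster has 1 deposited log2 signal per array, made with Affymetrix Expression Console and RMA per the submitters' processing notes, where Transcriptome Analysis Console is also named. RMA sets all arrays to 1 distribution, which takes out any shift common to most transcripts. The sources used here give no versions. The labels call the samples biological replicates.

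The table held 35557 clusters, of which a platform annotation named 1 gene for 21789, several for 1621 and none for 12147. Entrez identifiers of 21698 matched the gene table of GRCm38.p6, with 0 symbols changed. The 23410 named clusters were tested with limma 3.58.1 in R 4.3.3 (lmFit, eBayes; knockout minus wild type; Benjamini-Hochberg over all of them, threshold 0.05; no filter on dim signal), after the procedure was tested on simulated data. Intervals are limma's moderated 95% intervals for single clusters, and 3 arrays per group limit the precision. No exact permutation test was run on single genes. Tables were made with pandas 2.3.3 and figures with matplotlib 3.10.9.

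The members, partner lists, marker lists and tests were chosen with earlier results of these data known. Named genes were all member clusters, Ptpn9, the 2 lowest unadjusted p per partner list, the neighbours of Unc13c and the 5 clusters most like its cluster of highest mean signal. Cdh5, Rgs5, Emcn, Cryaa, Cryba1, C1qa, C1qb, C1qc, Stxbp2, Pax6, Otx2, Gabra6, Zic1, Rab27a, Xist and Eif2s3y were named outside that rule, after their values were seen. Listed genes without a single-gene cluster were not analysed here.

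Arrays that share a replicate number deviated together from their group means (r = 0.476, 0.485 and 0.455 for numbers 1, 2 and 3). Each r exceeded 0.1, the limit for pairing, so the number was also used as a block. The labels do not say what it marks. Standard errors and intervals are from the fit without the block unless the block is named, so variation shared within a number stays in them. Over all clusters the median standard error was 0.072 without the block and 0.052 with it. Sex-linked signal changed with the number in the same way in both genotypes, so the block also takes up sex. Alternatives were the block, median centring, cyclic loess, array weights, a variance trend, a filter on mean signal at the median or at the 25th percentile, a fit on every row, each array left out, and, added after seeing the data, both replicate 2 arrays left out, with and without the block.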

Additional observations from a re-analysis of the deposited data

How the results depend on the processing

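With the replicate block 1 cluster passed correction over all clusters and 1 among the members, the same Unc13c cluster 10594971 (adjusted p = 0.0138, limma). Both filters on signal leave that cluster out. Without replicate 2 of both groups and with the block, 20 clusters passed and 6 among the members, all of Unc13c. Ptpn9 passed there as well (-0.69, adjusted p = 0.0151, limma). Unc13c was picked on these arrays, so its calls are a description. In the other settings run, 0 passed in both counts (leaving out single arrays: 0 to 0), and the block with all 6 arrays changed no other call. The Unc13c differences stayed above 0 in all settings run. Leaving out arrays could not change that sign, since the arrays do not overlap. With single arrays left out the Unc13c differences ran from 0.24 to 0.35 in cluster 10594969 and from 0.71 to 0.94 in cluster 10594971. Ptpn9 ran from -0.67 to -0.52 with single arrays left out and was -0.69 without replicate 2.

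Members near 0 changed sign in 14 cases, none past the threshold. Without knockout replicate 1, Unc13a clusters 10579550 and 10579548 stood at 0.028 and -0.024 and Cadps at 0.047. Without wild-type replicate 2, Unc13a cluster 10579550 stood at 0.033 and Cadps at 0.034, and without wild-type replicate 3 Cadps at 0.012. Array weights put Cadps at 0.0029. Without knockout replicate 2 Rims1 stood at 0.022. Without replicate 2 of both groups, Unc13a cluster 10579550, Cadps and Rims1 stood at 0.030, 0.018 and 0.033, with and without the block. With single arrays left out, the lowest or highest values on the other side were -0.064 and 0.11 for these Unc13a clusters, -0.069 for Cadps and -0.13 for Rims1. The causes were not tested. The deposited values give no detection call, which limits dim clusters.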
